A study of Homo sapiens with 4 samples.

Results

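Loci that ended their transcripts at exactly 2 poly(A) regions with 3′ ends no more than 250 bases apart were examined in DICER(ex5) cells. They were chosen from the deposited table by a rule. Regions of a strand were joined into a locus where the start of one lay 5000 bases or less from the end of the previous one. A region was kept when it had 10 reads or more in the pooled libraries and made up 5% or more of its locus. A locus was taken with exactly 2 kept regions, at least 100 reads in them, and 3′ ends (the end on the plus strand, the start on the minus strand) within 250 bases of each other. The rule found 807 loci, out of 2971 loci with 2 kept regions and 17963 loci in all. They held 1056789 of the 17073064 reads in the table (6.19%).

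The data are raw read counts from poly(A) site sequencing of 4 libraries of a single group. All came from DICER(ex5), a hypomorphic line made from the colorectal cancer cell line HCT116. DICER encodes the enzyme that processes precursor hairpins into mature microRNAs. The labels give no treatment, time, clone number or batch, and the series held no parental cells for comparison. All results below therefore compare loci or libraries, not conditions, and they do not show what the loss of Dicer function does. The design calls the libraries biological replicates, but nothing in the labels ties each to a separate culture, so the spread between them may be partly technical.

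An mRNA 3′ end is made by cleavage of the nascent transcript and addition of a poly(A) tail. The cleavage machinery recognises a hexamer upstream of the cut and a U- or GU-rich stretch downstream, and many genes carry several such sites in a row in the last exon. Use of a proximal or a distal site sets the length of the 3′ UTR, and with it which microRNA and protein binding sites the mRNA keeps. Cleavage at one signal is also imprecise, so that neighbouring ends can belong to one signal or to a pair of them. The positions of ends alone do not tell these apart, and no genome sequence of build hg19 was used here to look for signals. Regions carry no gene names in the table. Loci are therefore given by position on hg19, as deposited, with the strand read as that of the transcript, and a locus may join the ends of neighbouring genes.

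The libraries held 2163977 to 5713530 reads. Libraries 1 and 2 resembled each other and so did libraries 3 and 4, while the pairs stood apart. Over all 31081 regions, thinned to the same depth, the chi-square per region was 1.56 for the first pair and 1.23 for the second, where sampling alone gives 1, against 6.32 to 8.85 in the other pairs. No label gives a reason, and a technical and a biological origin cannot be told apart. The results below are therefore given by library or by pair of libraries where this matters.

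The ends of the 807 loci lay 21 to 250 bases apart, with a median of 112. Short distances were the more common ones. The fullest 25-base class was over 50 and up to 75 bases, with 144 loci, followed by 127 loci in the next one, and the 2 widest classes, over 200 bases, held 47 and 60. Few loci had ends closer than 26 bases (4 loci). The smallest gap between the regions of a locus was 11 bases. This lower edge cannot be told apart from the way the regions were made before deposit. The distal region had a median width of 32 bases and the proximal one of 33, and the distal region was the wider one at 379 loci. The stronger region was the wider one at 487 loci. At 642 loci the 2 kept regions were the only ones, and at 165 the locus held weaker regions as well, up to 22 in all.

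The distal share is the percentage of a locus's kept reads that fell in the downstream region. Its bounds follow from the rule: with a 5% minimum for both regions it cannot leave 5% to 95%, and it ran from 5.03% to 95.0%. It is therefore given as a description. Pooled over libraries its median was 59.6%, with quartiles of 26.9% and 84.0%. The distal region took over 50% at 461 loci (57.1%). By library the median was 60.5%, 58.9%, 58.1% and 60.8% in libraries 1 to 4, a mean of 59.6% ± 1.27 (SD, n = 4). The libraries were close to each other in this median, and the pairs of libraries did not separate in it.

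Loci did not gather around an even division. A distal share under 20% was found at 18.7% of the loci, one of 40% to under 60% at 126 loci (15.6%), and one of 80% or more at 244 loci (30.2%). These classes have different widths. Per percentage point of share there were 10.1 loci between 5% and 20%, 6.30 between 40% and 60% and 16.3 between 80% and 95%. The distribution thus had a high end, a lower end and a trough between them, with the distal-dominated end the fuller one. By library the share of loci under 20% or at 80% and more was 50.9%, 51%, 49.9% and 52.2% in libraries 1 to 4. The share from 40% to under 60% was 12.9%, 15.0%, 15.1% and 14.1%.

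The trough was not seen at the shallow loci. A region needs 10 reads, which is more than 5% of a locus with under 200 reads, so the most extreme shares could not be members there. A region minimum of 20 reads still left 805 of the 807 members, so few of their regions held under 20 reads. Why such regions were few was not tested. Of the 150 loci with under 200 reads, 8 lay in the outer classes (5.33%) and 44 between 40% and 60% (29.3%). Among the 657 loci with 200 reads or more, 387 lay in the outer classes (58.9%) and 82 in the middle (12.5%). There the 10-read minimum is no stricter than the 5% minimum. As few regions held under 20 reads, the shallower of these loci may still have been limited. The outer classes held 17.0% of the 229 loci with under 300 reads and 63.6% of the 297 with 300 to under 1000. At the 281 loci with 1000 reads or more the outer classes held 59.4% and the middle 12.1%. The shape with a trough was therefore present at the deeply read loci, where counting noise is small.

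**Figure D1:**
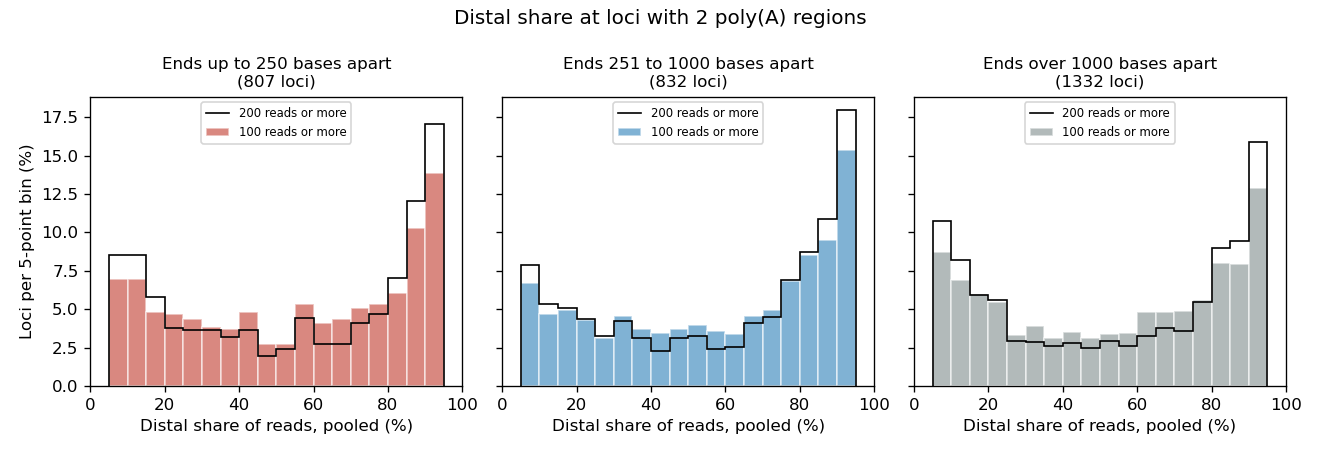
Histograms of the pooled distal share (x axis, %) as the percentage of loci per 5-point bin (y axis), for loci with ends up to 250, over 250 and up to 1000, and over 1000 bases apart. Bars hold all loci with 100 reads or more and the black outline those with 200 reads or more; in every panel both ends are fuller than the middle, the distal end most, and no locus lies outside 5% to 95%.

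Counting noise gave little of the spread between loci. The pooled share of a locus has a binomial error, whose root mean square over the 807 loci was 2.23 percentage points, while the SD of the share between loci was 29.7 points. Counting therefore made up 0.562% of the variance between loci, and the variation between libraries of a locus's mean share, counting included, made up 1.93%. The second value takes the libraries as independent. Since they resembled each other in pairs, it is likely too low. When the binomial noise was removed by expectation-maximisation over 10 even bins from 5% to 95%, the shape stayed as it was. The lowest pair of bins (5% to 23%) held 175 loci by counts and 174.8 with the noise removed. The middle pair (41% to 59%) held 107 and 103.4, and the highest pair (77% to 95%) held 267 and 272.8. These error estimates treat reads as independent molecules. Where duplicates were kept, the true counting error is larger.

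In a single library and at a single locus, counting noise was not small. The median locus had 186, 75, 202 and 139 kept reads in libraries 1 to 4. The 95% Wilson interval of a locus reached, in the median, 5.14, 7.96, 5.00 and 5.93 percentage points to either side. Library 2, the shallowest, was thus the least precise. At the 229 loci with under 300 reads in all, it reached 11.7, 17.1, 11.6 and 13.7 points.

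How much of the difference between libraries is counting noise was estimated by setting the variance of the distal share over the 4 libraries against the binomial variance at the same counts. At the 806 loci with reads in every library, the root mean square SD over the libraries was 8.25 points. Counting alone gives 4.97 points, or 36.3% of the variance. The rest corresponds to an SD of 6.58 points beyond counting. The typical locus was closer to counting noise than these means, since a few loci varied far more. The median SD was 4.45 points, against 3.24 from counting. The observed variance was at or below the expected one at 248 loci (30.8%), and the SD was at least 3 times the counting SD at 81.

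The share of variance that counting gave depended on depth. It was 51.8% at the 229 loci with under 300 reads, 29.5% at the 297 with 300 to under 1000, 11.1% at the 207 with 1000 to under 3000 and 4.52% at the 63 with 3000 to under 10000 reads. The spread beyond counting did not follow the same course, with SDs of 7.77, 5.72, 5.90 and 5.96 points in these classes. At the 11 loci with 10000 reads or more the SD beyond counting was 13.4 points, which rests on few loci, and the median SD was 2.98 points against 0.683 from counting. The counting part of the spread was thus far smaller at deep loci, while the other part did not shrink in step with it.

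**Figure D2:**
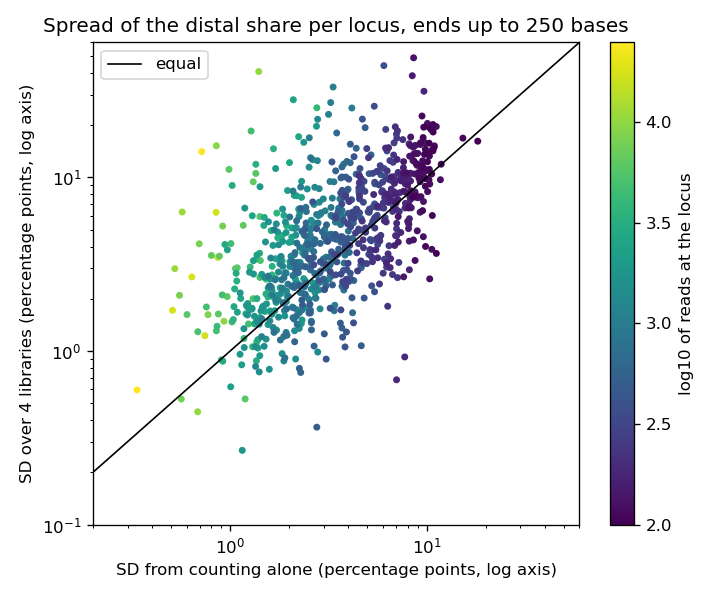
Each point is a locus with reads in all 4 libraries; the x axis is the SD of the distal share expected from counting and the y axis the observed SD over 4 libraries, both in percentage points on log axes, with the colour giving log10 of the reads. Points lie around the line of equality for shallow loci, on the right, and mostly above it for deep ones, on the left, as the medians of 4.45 points observed and 3.24 points from counting show.

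Most of the spread beyond counting lay between the pairs of libraries. Between libraries 1 and 2 counting gave 84.0% of the variance of the distal share, and between libraries 3 and 4 it gave 79.8%. In the other pairs it gave 22.9% (libraries 1 and 3), 27.8% (1 and 4), 28.4% (2 and 3) and 32.2% (2 and 4). The SD beyond counting was 2.33 and 2.24 points within the like pairs, against 7.28 to 8.55 points in the unlike ones. At the 281 loci with 1000 reads or more, where counting is least, it was 2.2 points between libraries 1 and 2 and 1.09 between libraries 3 and 4, against 6.91 to 8.44. Read within a like pair, then, the distal share of a close pair of ends was repeated to within a few points beyond counting. Across loci, Pearson's r of the distal share was 0.963 and 0.973 within the like pairs (806 and 807 loci) and 0.890 to 0.920 in the others. Loci are not independent replicates, and the libraries differ in depth.

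**Figure D3:**
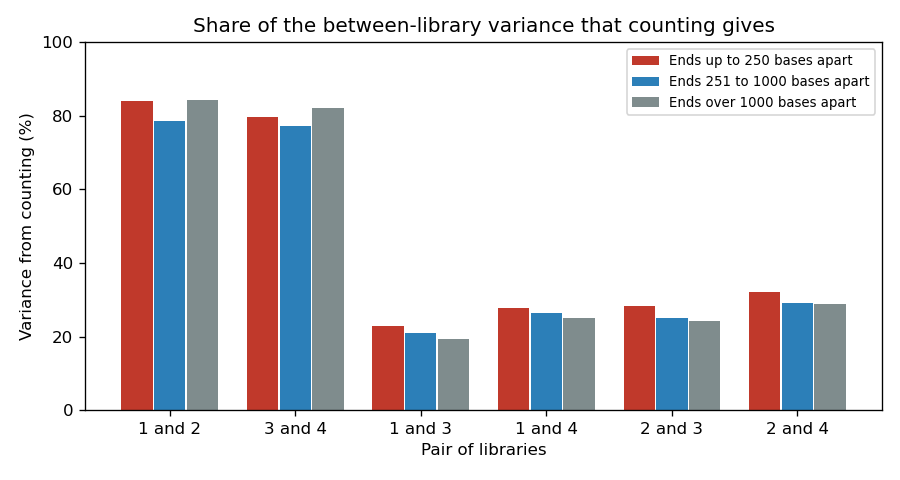
Bars give the percentage of the between-library variance of the distal share that counting alone gives (y axis), for each of the 6 pairs of libraries (x axis) and for the 3 distance classes of loci with 2 regions. The bars for libraries 1 and 2 and for libraries 3 and 4 reach 77.3% to 84.4%, and those of the other pairs 19.4% to 32.2%, in all classes.

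The same division appeared in the tests locus by locus, which used the counts by library and not the pooled values of the rule. A chi-square test of homogeneity over the 4 libraries, adjusted by Benjamini-Hochberg over all 5070 loci with several kept regions, called 215 of the 807 loci (26.6%). Over all loci tested, 29.1% were called, so the close pairs were near the background. At loci with 2 regions whose ends lay over 250 and up to 1000, and over 1000 bases apart, 31.9% and 30.4% were called. Calls were more frequent at deeper loci, with 13.5% of those under 300 reads and 57.1% of those with 3000 to under 10000.

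Fisher's exact test (two-sided, adjusted within each pair of libraries over the 5070 loci) was applied to counts thinned to the smallest library. Between libraries 1 and 2 it called 1 of the 807 loci (0.124%), against a background of 0.256% of all loci tested. Between libraries 3 and 4 it called 2 (0.248%, background 0.0986%). It called 77 between libraries 1 and 3 (9.54%, background 11.1%), 73 between 1 and 4 (9.05%, background 9.29%), 126 between 2 and 3 (15.6%, background 16.4%) and 112 between 2 and 4 (13.9%, background 14.3%). Between unlike libraries the close pairs were thus called about as often as loci at large. Without thinning, the calls in the like pairs were 8 (0.991%, background 0.690%) and 6 (0.743%, background 0.237%). Between libraries 3 and 4 the share called was thus above the background, which rests on few calls. In the unlike pairs they were 162, 131, 155 and 141, in the same order. These were 20.1%, 16.2%, 19.2% and 17.5% of the loci (backgrounds 23.4%, 18.0%, 21.9% and 18.3%).

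The differences between unlike libraries recurred in libraries that had not been used to call them, although the rule had pooled all libraries. This was counted at the 807 loci only, with no value for the other loci tested. The same libraries stood apart over all regions, so the recurrence is not shown to be particular to close pairs. Of the 77 loci called between libraries 1 and 3, 71 had a difference of the same direction between libraries 2 and 4, and 51 were called there too. The median size of these differences was 24.4 points where they were called and 18.5 points in the other libraries. Of the 112 called between libraries 2 and 4, 107 had the same direction between libraries 1 and 3 and 51 were called there, with medians of 17.1 and 9.94 points. The size was thus smaller in the libraries not used to call the loci. The differences went in both directions in every unlike pair. Of the 77 loci, the distal share was higher in library 3 at 41 and lower at 36, and of the 112 it was higher in library 4 at 57 and lower at 55. Of the 126 called between libraries 2 and 3 it was higher in library 3 at 74 and lower at 52, and of the 73 called between libraries 1 and 4 it was higher in library 4 at 31 and lower at 42. At 61 of the 77 loci the reads of the 2 regions moved in opposite directions between libraries 1 and 3. The distal region had the larger fold difference at 36 and the proximal one at 41. The 77 loci were chosen for a difference in share on the same counts, which favours opposite movement. These numbers describe them and test nothing.

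The level of a whole locus also differed between the unlike libraries. On log2 of CPM (reads scaled to a common library total) plus 1, the 2 regions together differed over 2-fold between libraries 1 and 3 at 54 loci (6.69%), the distal region alone at 71 and the proximal one at 80. Between libraries 3 and 4 the corresponding numbers were 1, 3 and 7. These counts were made for the 807 loci only, so they are not set against loci at large. Libraries 1 and 3 differed over all 31081 regions as well, with a chi-square per region of 6.97. A locus may change in total level without a change in distal share, and an origin in the cells and one in library preparation cannot be told apart.

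The 5 loci with 1000 reads or more and the largest chi-square show what such a difference looks like. At chr19:5691641-5691906 on the plus strand, with ends 189 bases apart, the distal region took 95.1% of 1170 reads in library 1, 96.6% of 498 in library 2, 23.4% of 5301 in library 3 and 27.2% of 3144 in library 4. The distal region itself hardly moved, with 214, 222, 218 and 215 CPM in libraries 1 to 4, while the proximal region had 10.9, 7.86, 710 and 575 CPM. In libraries 1 and 2 the proximal region lay below the 5% minimum, which it passed on the pooled reads. This locus alone gave 16.2% of the summed chi-square of the 807 loci, whose dispersion (chi-square per degree of freedom, 1 from sampling alone) was 7.72 with it and 6.48 without it. The 50 most variable loci gave 69.8%.

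The most deeply read locus of the set, chr1:45976693-45976928 on the minus strand, had ends 194 bases apart and 24899 reads. Its distal share was 51.3%, 48.9%, 75.9% and 72.8% in libraries 1 to 4 (adjusted p = 6.6e-296, chi-square test with Benjamini-Hochberg adjustment). Here it was the proximal region that stayed level, at 496, 463, 456 and 467 CPM, and the distal one that differed, with 523, 442, 1432 and 1252 CPM. At chr20:60711761-60711990 (minus strand, 205 bases) the distal share was 71.3%, 62.7%, 94.1% and 91.0%, and the proximal region had 157, 198, 32.4 and 48.4 CPM. Both of these loci were higher in distal share in libraries 3 and 4.

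At chr2:198368069-198368202 (plus strand, 80 bases) the order was the other way, with distal shares of 98.6%, 99.5%, 62.3% and 73.8%. The proximal region there had 3.45, 1.39, 103 and 76.3 CPM in the same order. It too lay below the 5% minimum in libraries 1 and 2 and passed it on the pooled reads. At chr11:65622248-65622455 (minus strand, 129 bases) both regions differed. Its distal share was 80.3%, 85.1%, 35.3% and 33.2%, the distal region having 132, 155, 39.7 and 41.2 CPM and the proximal one 32.4, 27.3, 72.8 and 82.8. In none of the 5 loci did the values of libraries 1 and 2 overlap those of libraries 3 and 4. They were chosen for their spread, so this describes them and tests nothing.

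Other deeply read loci were steady. The 5 with the smallest chi-square spanned the whole range of usage. At chr21:30426576-30426821 (plus strand, 131 bases) the distal share was 94.3%, 94.5%, 94.6% and 94.9% in libraries 1 to 4. It was 76.1%, 75.3%, 76.4% and 75.5% at chr3:128888317-128888444 (minus strand, 73 bases), with 5880 reads, and 38.9%, 39.8%, 40.6% and 41.2% at chr22:21307867-21308045 (plus strand, 130 bases). The SDs of these 3 loci, 0.268, 0.529 and 0.986 points, were below the 1.15, 1.19 and 2.79 points that counting gives on average, as is bound to happen at loci picked for a small spread. The locus at chr16:84813336-84813534 (plus strand) had a mean of 91.6% ± 0.785, and that at chr1:39471540-39471743 (plus strand) 11.4% ± 0.877 (SD, n = 4).

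**Figure D4:**
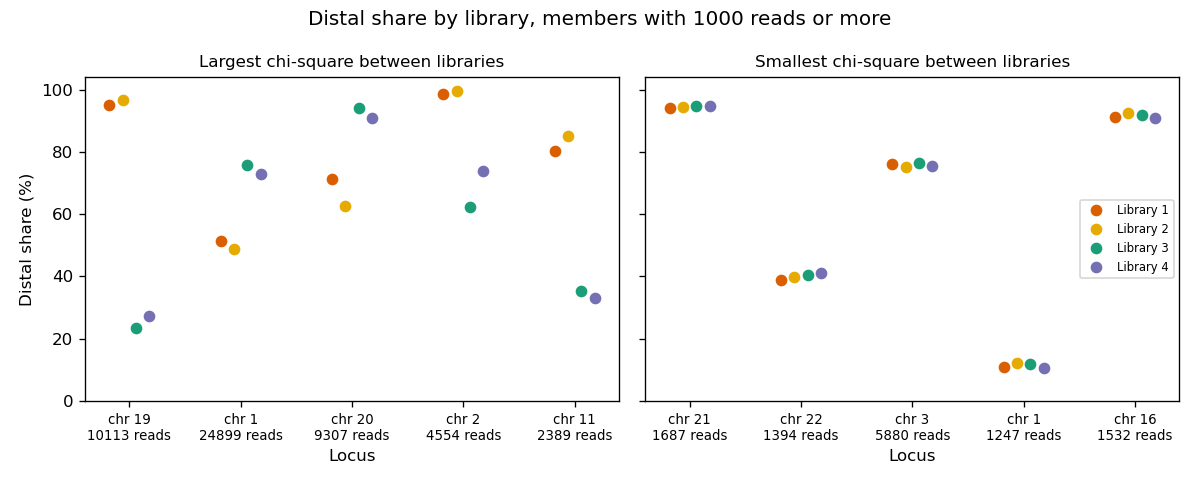
Distal share (y axis, %) by library for the 5 loci with the largest (left) and the 5 with the smallest (right) chi-square between libraries, among loci with 1000 reads or more; points are single libraries. On the left, libraries 1 and 2 lie apart from libraries 3 and 4 at each locus, as at chromosome 19 with 95.1% and 96.6% against 23.4% and 27.2%; on the right the 4 points of a locus lie close together.

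The 10 loci with the most reads included both strongly distal and strongly proximal ones. At chr4:75254209-75254493 (plus strand, 190 bases, 24703 reads) the distal share was 93.8% ± 0.597, and at chr12:53873380-53873644 (plus strand, 192 bases) it was 88.9% ± 0.447 (SD, n = 4). At chr17:5335911-5336133 (minus strand, 175 bases, 17689 reads) it was 11.7% ± 1.72, and at chr11:2949476-2949716 (minus strand, 160 bases) 6.53% ± 2.98 (SD, n = 4). The locus on chromosome 11 had 7.48%, 10.2%, 3.25% and 5.21% in libraries 1 to 4, so its distal region fell below the 5% minimum in library 3 alone. The distal shares at chr12:88886545-88886746 (minus strand) and chr5:10265014-10265199 (plus strand) were 81.4% ± 2.67 and 72.6% ± 1.23 (SD, n = 4).

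Nearer to an even division were chr2:47613973-47614184 (plus strand, 73 bases), with 43.2%, 38.7%, 52.6% and 49.8% in libraries 1 to 4, and chr19:812186-812333 (plus strand, 97 bases), with 53.0%, 50.7%, 58.1% and 57.0%. The last of the 10, chr2:62095533-62095681 (minus strand, 84 bases), had 96.6%, 98.3%, 84.8% and 89.3%. Loci with a mean share close to 50% were of different kinds. At chr17:34851470-34851616 (minus strand, 116 bases) all libraries were near it, with 47.2%, 49.3%, 47.1% and 51.4%. At chr19:863287-863472 (plus strand, 155 bases) the mean of 51.5% came from 39.7%, 34.0%, 67.8% and 64.6% in libraries 1 to 4. A mean near 50% over the 4 libraries thus did not always stand for even use in any of them.

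The sides of 50% show the same. At 400 loci each of the 4 libraries gave the distal region more than 50%, and at 287 each gave it less. The remaining 120 lay on both sides, at exactly 50%, or had no reads in a library. With the pooled share of each locus and its counts, binomial counting alone would put 77.0 loci there. At the 281 loci with 1000 reads or more the numbers were 20 observed and 5.59 from counting. The number expected from counting was thus a larger part of the observed number over all loci than at the deep ones. It takes the pooled share as that of every library, so it does not tell which of the observed loci changed side by counting.

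Distance within the 250 bases went with a difference in distal share. At the 355 loci with ends up to 100 bases apart the median was 53.2%, 50.3%, 52.7% and 52.4% in libraries 1 to 4. At the 452 with ends over 100 bases apart it was 65.1%, 63.2%, 61.6% and 64.0%. The difference, closer ends minus wider ones, was -11.3 ± 1.72 points (SD, n = 4) and negative in all 4 libraries. An exact two-sided sign-flip test over 4 libraries cannot go below p = 0.13, which is the value it gave. The change was not steady with distance. In steps of 26 to 50, then up to 100, 150, 200 and 250 bases, the median was 59.2% ± 2.53, 51.3% ± 1.51, 64.3% ± 2.15, 58.4% ± 0.462 and 67.7% ± 1.58 (SD, n = 4). Each library counted the same set of loci, and the SDs over libraries hold nothing of the variation from locus to locus, whose SD was 28.9 to 30.6 points in these classes.

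**Figure D5:**
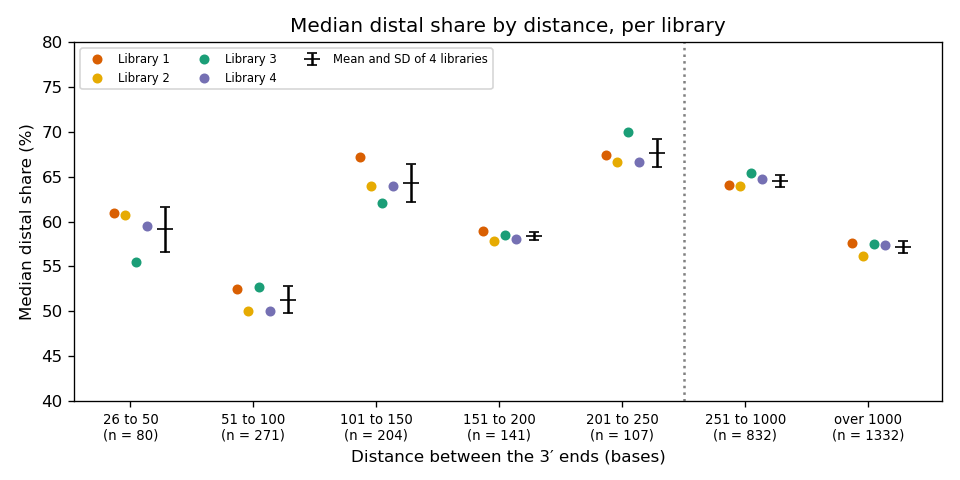
Median distal share (y axis, %) by distance between the 3′ ends (x axis, bases), with a point for each library and the mean and SD of 4 libraries beside them; the dotted line divides the loci with ends up to 250 bases apart from the wider ones. The lowest medians, 50.0% to 52.7%, are at over 50 and up to 100 bases; the 4 loci with ends closer than 26 bases are not drawn.

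Against loci with wider pairs of ends, the close pairs had a similar shape with a trough, while the median differed by class and depth. The median distal share was 59.6% ± 1.27 at the close pairs and 64.6% ± 0.703 at the 832 loci with ends over 250 and up to 1000 bases apart (SD, n = 4). The difference was -4.98 ± 1.67 points, negative in 4 of 4 libraries (exact sign-flip p = 0.13, the smallest possible with 4). Without library 4 it was -8.25 points, and with regions joined within 1000 bases -2.18 points. It was +2.39 ± 1.23 points against the 1332 loci with ends over 1000 bases apart, whose median was 57.2% ± 0.705 (SD, n = 4; exact p = 0.13). With 200 reads or more, 58.9% of the close pairs lay in the outer classes, against 55.9% and 59.1% of the wider ones, and 12.5% in the middle, against 11% and 10.8%. The SD beyond counting was 6.58 points, against 6.77 and 7.51. These last values have no test over samples and are given as a description.

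Some loci with a narrow region varied widely. Of the 807 loci, 29 had a kept region no wider than 10 bases, and there the SD beyond counting over the 4 libraries was 14.1 points, against 6.13 at the other loci. The median SD at the 29 loci was 8.18 points, against 8.09 from counting, and at the other loci it was 4.37 points, against 3.09. Each median was taken separately, so they do not show how a locus compared with its own counting SD. The median chi-square per degree of freedom was 1.86 at the 29 loci and 1.75 at the others. The observed variance was at or below the expected one at 27.6% and 30.9% of them. The dispersion was 5.55 at the 29 loci and 7.80 at the others. Between libraries 1 and 3 the SD beyond counting was 15.3 points at these loci. Within the like pairs it was 3.29 and 1.16 points, so these loci too differed mainly between the pairs. At the 165 loci that held further weak regions the SD beyond counting was 6.55 points, and at the 642 without any it was 6.59. The 165 were read more deeply, with a median of 1845 reads against 428. Their dispersion was 19.6 against 4.67, and the median chi-square per degree of freedom 2.51 against 1.63. Depth was not held equal, so whether weak regions go with a wider spread was not tested.

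Members at the edges of the rule show how finely it cut. With exactly 250 bases between the ends, chr12:57057116-57057403 (minus strand), chr8:66514670-66514941 (minus strand) and chr14:55820057-55820341 (plus strand) were mostly distal, with means of 69.9% ± 25.2, 92.7% ± 4.99 and 93.2% ± 2.34 (SD, n = 4). Just outside, 1 base beyond the limit, the pooled shares were 35.1%, 72.1% and 67.4%. With exactly 100 reads, chr15:95023516-95023639, chr6:149812821-149812955 and chr12:30955637-30955816 had means of 44.5% ± 15.7, 69.1% ± 19.5 and 66.8% ± 3.65 (SD, n = 4), and 3 loci just below, with 97 to 99 reads, had 57.7% to 58.8%. At 35 of the 807 loci the weaker region held 5% to under 6% of the reads of the locus, the proximal one at 24 and the distal one at 11. A further 41 loci had a single kept region and, within 250 bases of it, another at 4% to under 5%, just below the minimum.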

How the data were processed

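The deposited values are unnormalized counts, 1 column for each library, beside the strand and coordinates of every poly(A) region. Per the submitters' processing notes, Bowtie2 2.2.5 and hg19 were used. The sources used here do not say how regions were built, or whether the degenerate primer bases served to remove duplicates. The reference tables at hand were of another build, so no gene, sequence or poly(A) signal was assigned and the DICER1 gene was not analysed here.

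The members and all classes were chosen with earlier results of these data known. Loci, kept regions and members followed the rule stated at the opening. Counting variance was binomial, taken at the pooled share of a locus. The dispersion is the summed chi-square (2 regions by libraries) over its degrees of freedom. Chi-square and Fisher tests (scipy 1.17.1) ran over all 5070 loci with several kept regions and 100 reads, with Benjamini-Hochberg adjustment and a threshold of 0.05. Thinning drew reads without replacement to 2163977 per library. The scripts were tested on simulated counts. Intervals are 95% Wilson intervals and, like the binomial errors, cover counting error only. With a single group no model across conditions could be fitted.

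Named loci were, by rule, the 10 with the most reads; the 5 with the highest, the 5 with the lowest and the 5 with the most even distal share among loci with 100 reads in every library; the 5 with the largest and the 5 with the smallest chi-square among those with 1000 reads; the best read of each distance class; and the 3 on each side of the limits. Not all are printed. The class of 200 reads or more was added after the shape had been seen. Alternatives are given in the closing section.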

Additional observations from a re-analysis of the deposited data

Results flagged for a closer look

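Of 66 values tested for a library that lay far from the other 3, 2 stood apart; chance gives about 1 in 20. At chr14:104378605-104378892 (minus strand, 234 bases between ends, 9806 reads) the distal share was 22.6% in library 2 and 25.6%, 25.3% and 25.7% in libraries 1, 3 and 4. The gap of library 2 to the nearest was 0.883 of the whole range. At the 355 loci with ends up to 100 bases apart, the percentage with a distal share from 40% to under 60% was 11% in library 1 and 15.0%, 14.6% and 14.4% in libraries 2 to 4, a gap of 0.847 of the range.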

How the results depend on the processing

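The percentage of members with a distal share over 50% is given here as the mean over libraries, which was 56.5% as reported. Joined within 1000 bases there were 1346 members, with 45.0% in the outer classes, that is under 20% or 80% and more. Of the 1346, 346 were called by chi-square. The share called over all loci was not computed for that joining, so this count has no background. Within 2000 bases the outer share was 46.8%. Within 10000 bases, 57.3% of members had a distal share over 50% and 49.9% were outer. A share minimum of 2% gave a median distal share of 61.5%, 57.4% over 50%, 54.1% outer and 14.2% in the middle class (40% to under 60%). With a minimum of 10% the bounds narrow by construction, and the values were 56.1%, 54.8%, 35.3% and 19.1%. With 500 reads or more, 453 members were left, with a median of 62.5%, 57.1% over 50%, 61.4% outer and 12.6% middle; the dispersion was 11.9 against 7.72, and counting gave 14.4% of the variance between libraries and 0.113% of that between loci. Members chosen on thinned counts had 55.9% over 50%, 57.5% outer and 10.8% middle. With ends up to 100 bases (355 loci) the median was 52.1%, 51.1% lay over 50% and 47.6% were outer, and with over 100 bases (452 loci) the values were 63.4%, 60.7% and 50.0%. Within libraries 1 and 2 alone the dispersion was 1.52 and counting gave 84.0% of the variance, and within libraries 3 and 4 the values were 1.43 and 79.8%. Unthinned Fisher tests called 8 members between libraries 1 and 2 (background 0.690%) and 162 between 1 and 3 (background 23.4%). They called 131 between 1 and 4 (background 18.0%) and 6 between 3 and 4 (background 0.237%).

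With a replicate left out, also in choosing members, the outer share was 51.8% to 55.0%, the middle share 11.8% to 14.2%, the share over 50% 55.7% to 56.8%, the dispersion 6.87 to 10.2 and the difference to loci with ends over 250 and up to 1000 bases apart -8.25 to -6.34 points. That difference also moved by over 1.5 times, from -4.98 points, when loci were joined within 1000 (-2.18) or 2000 bases (-3.13), with 500 reads or more (-10.6) and with thinned counts (-8.12). The runs without a replicate kept 687 to 766 of the 807 members, and 6 to 9 of 43 named loci were no longer members in them. The other alternatives run (a region minimum of 20 reads, no regions of 10 bases or fewer, the G-test) stayed within the spread between libraries or within 1.5 times. The difference to loci with ends over 250 and up to 1000 bases apart was negative under every alternative run for it. The other differences between distance classes had no such run. No paired analysis was possible because the series has a single group.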

Other observations

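The 807 loci lay on 23 chromosomes, with 78 on chromosome 1, 59 on chromosome 3 and 56 on chromosome 2. There were 409 on the plus strand and 398 on the minus strand, and the SD of the distal share beyond counting was 6.75 points on the plus strand and 6.41 on the minus strand. A region of the opposite strand overlapped the locus at 46 of the 807 loci (5.70%), against 4.93% of the loci with ends over 250 and up to 1000 bases apart and 7.21% of those with ends over 1000 bases apart. Within 1000 bases downstream, 52 of the 807 loci (6.44%) had an opposite-strand region, against 7.69% and 5.18%. These are descriptions with no test.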
